A study of Mus musculus with 12 samples.

Results

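The genes described here are the 5 connexins by which the glia and neurons of the cortex are coupled to each other, Gjc3 (protein Cx29) and Gjb1 (Cx32) of oligodendrocytes, Gja1 (Cx43) and Gjb6 (Cx30) of astrocytes and Gjd2 (Cx36) of neurons. They were chosen by name, and each was read from a probe set that the platform annotation pairs with that gene alone. Each of the 5 has 1 such probe set and all 5 passed the filter on low values, out of 17656 genes that did. The brightness of a probe set over all arrays is the value the choice would use between several probe sets, and it decided nothing here.

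Expression was measured in the medial prefrontal cortex (mPFC) of wild type adult male mice of the C57BL/6 strain, 6 homecage (HC) mice and 6 mice after chronic social defeat (CSD), with 1 Affymetrix Mouse Gene ST array for each mouse. CSD mice lived for 14 days in the cage of an aggressive CD-1 male behind a perforated partition, which was taken out for 5 min each day, whereas HC mice were kept in groups, so that defeat and housing cannot be told apart. Behaviour in 2 tests decided which stressed mice entered the study. The brains were perfused with saline and dissected 24 h after defeat ended, with the white matter of the forceps minor as the border of the dissection. An age in weeks is not given in the sources used here. All values below are log2 expression values made by the authors with RMA, and differences are CSD minus HC on that log2 scale.

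Connexins are membrane proteins that assemble into rings, and rings of adjoining cells dock into gap junction channels that pass ions and small metabolites. In the brain, astrocytes are joined to each other mainly through Cx43 and Cx30 and to oligodendrocytes through pairs such as Cx30 with Cx32, a coupled system called the panglial network, which is known for clearing potassium released by active axons and for passing metabolites towards myelin. Cx29 sits in the innermost myelin membrane facing the axon and is not known to form channels between cells. Cx36 forms the electrical synapses between neurons, in the cortex chiefly between inhibitory interneurons.

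The 12 arrays had medians between 7.50 and 7.69. HC replicate 2 had the highest median and HC replicate 6 the lowest, and limma gave these arrays the lowest weights, 0.259 and 0.397, against 0.898 to 1.88 for the other 10. Each difference was therefore also computed without both of them. System noise, the level below which a value was taken as background, was 5.75. The measured genes that define oligodendrocytes, astrocytes and inhibitory neurons averaged at least 2.13 log2 units above it, whereas Aif1 of microglia and Lum and Aldh1a2 of meningeal fibroblasts averaged less than 1 unit above it. Mean levels of 11 genes of mature oligodendrocytes ranged from 9.61 to 10.18 in HC and from 9.04 to 9.58 in CSD mice, without overlap, and those of 12 astrocyte genes from 10.34 to 10.55 in HC and from 10.39 to 10.46 in CSD mice.

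Of the oligodendrocyte connexins, Gjc3 had its 6 lowest values in the 6 CSD mice, at 62.5% of the HC level, and Gjb1 was lower by a small amount. Neither passed the adjustment in limma. The astrocyte connexins Gja1 and Gjb6 and the neuronal Gjd2 differed by less than could be resolved between 6 and 6 mice. The difference of Gjb1 could not be told apart from theirs. With limits of 0.05 on the unadjusted p in limma and 1.2 on the fold change, 1 of the 5 connexins was lower and 0 were higher, against 0.600% of all genes lower and 0.0793% higher, and 1.36% of all probe sets in either direction. With the fold limit left out, 2 of the 5 were lower and 0 higher, against 6.52% and 1.89% of all genes. All 5 had a lower mean in CSD mice, as did 57.1% of all genes. After adjustment over all 29838 probe sets tested, 0 of the 5 passed in limma, and 0 of all genes did. The 5 genes were picked with earlier results of these arrays known, Gjc3 among them, so these counts describe the picked genes and do not test them.

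**Figure D1:**
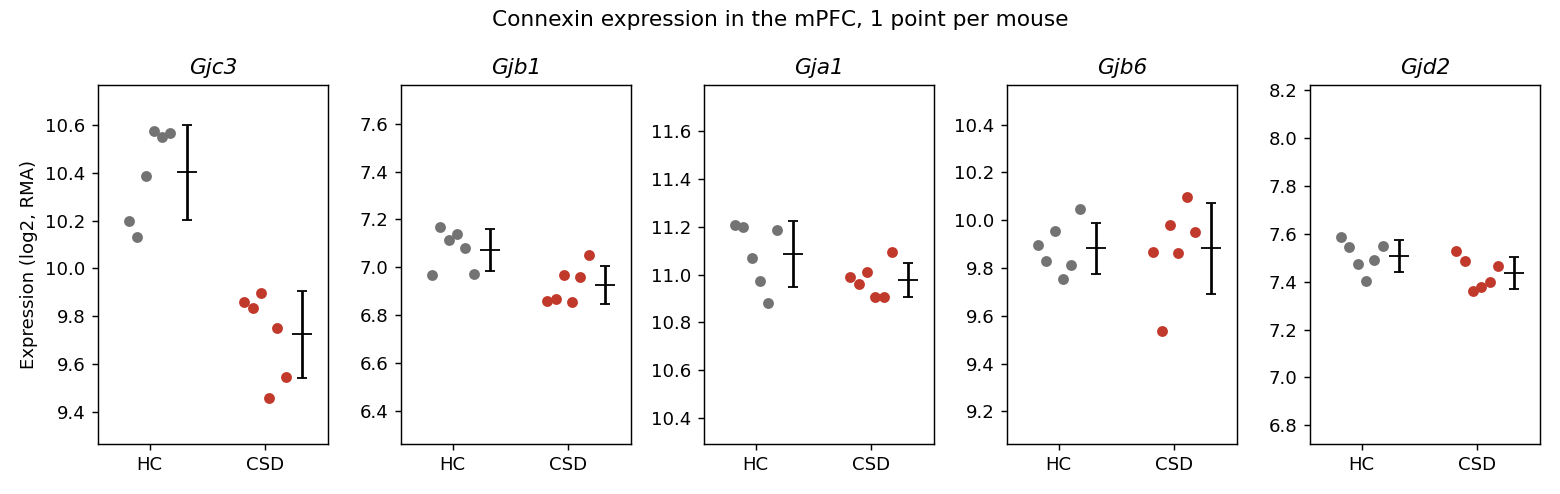
Log2 expression of the 5 connexin genes (vertical axis, each panel spanning the same 1.5 log2 units) in HC mice (grey) and CSD mice (red), 1 point per mouse in order of replicate number, with group means ± SD over 6 mice. For Gjc3 the groups do not overlap, whereas for the other 4 genes they do.

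Gjc3 encodes Cx29, a protein of myelin-forming cells. In HC mice its value was 10.13 at the lowest, 10.47 at the median and 10.58 at the highest. In CSD mice it was 9.46 at the lowest, 9.79 at the median and 9.90 at the highest. All 6 CSD mice thus lay below all 6 HC mice, a separation seen in 0.935% of all genes. In HC the 3 highest mice, replicates 4, 5 and 6, lay within 10.55 to 10.58, and replicates 1 and 2 were the lowest at 10.20 and 10.13. In CSD the lowest mice were replicates 8 and 10, at 9.46 and 9.55. The mean was 10.40 ± 0.20 (SD, n = 6) for HC mice. For CSD mice it was 9.72 ± 0.18 (SD, n = 6). The difference was −0.68 (standard error 0.10, 95% confidence interval −0.89 to −0.46), a fold change of 1.60, at an adjusted p of 0.0673 in limma, which did not pass. The exact permutation test over arrays gave p = 0.00216, two-sided and unadjusted, the smallest that 6 against 6 allows. In bulk tissue, fewer oligodendrocytes and less RNA per oligodendrocyte cannot be told apart. The Gjc3 call depended on the setting. Gjc3 passed with the test limited to probe sets of a single gene (adjusted p = 0.0193 in limma) and with a variance trended on the mean and fitted robustly (adjusted p = 0.0345 in limma), and did not under the other alternatives.

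Gjb1 encodes Cx32, which oligodendrocytes use for channels among themselves and towards astrocytes, and which is mutated in an X-linked form of Charcot-Marie-Tooth neuropathy. Its value was 6.97 at the lowest, 7.10 at the median and 7.17 at the highest in HC, and 6.85, 6.91 and 7.05 in CSD mice. The groups overlapped, although 5 of the 6 CSD mice were below the lowest HC mouse. The exception was CSD replicate 10, at 7.05, which had the lowest mean of oligodendrocyte genes of all 12 mice. Among the 5, CSD replicates 7 and 9 were nearly level with the lowest HC mouse, at 6.9656 and 6.9600 against 6.9658. The difference was −0.15 (standard error 0.05, 95% confidence interval −0.25 to −0.04), a fold change of 1.11, at an adjusted p of 0.416 in limma and an exact permutation p of 0.0108, two-sided and unadjusted. The signal of Gjb1 averaged 1.25 log2 units above system noise, against 4.32 for Gjc3. Close to background an array compresses differences, and how much of the difference between both genes comes from this was not tested.

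To show the sequence from which both oligodendrocyte connexins are transcribed, the 250 bases before a start site are given from RefSeq (GRCm38.p6), 5′ to 3′ on the strand of the gene. All 5 connexins were found among the RefSeq promoters, 4 with 1 start site and Gjb1 with 4. Capitals mark matches on either strand to ACAAAG or ACAATG (cores bound by SOX factors such as SOX10), AGAACA (part of the site of the glucocorticoid receptor) and TATAAA (the TATA box). The Gjb1 start with matches to all 4 motifs is shown.
Gjc3, chr5:137963099-137963348, minus strand: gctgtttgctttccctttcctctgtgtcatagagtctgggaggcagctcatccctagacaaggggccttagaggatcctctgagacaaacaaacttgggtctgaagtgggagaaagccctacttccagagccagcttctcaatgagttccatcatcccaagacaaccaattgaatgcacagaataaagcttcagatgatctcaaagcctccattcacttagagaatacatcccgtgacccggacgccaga
Gjb1, chrX:101383482-101383731, plus strand: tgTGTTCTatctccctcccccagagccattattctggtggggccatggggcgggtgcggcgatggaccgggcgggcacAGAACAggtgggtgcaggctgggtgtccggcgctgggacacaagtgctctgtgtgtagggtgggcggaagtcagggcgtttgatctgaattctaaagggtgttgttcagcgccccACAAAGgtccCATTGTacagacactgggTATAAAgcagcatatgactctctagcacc
In this Gjb1 window the SOX cores begin at positions −57 and −47 and the TATA box at −29 from the start, and none of the marked matches overlap. Of all 32851 promoter windows of 300 bases (250 before and 50 after the start), 18.7% hold ACAAAG, 12.6% ACAATG, 19.0% AGAACA and 13.6% TATAAA on either strand. Of the other 3 Gjb1 windows, 1 holds ACAAAG and AGAACA and the rest hold none of the motifs. The Gjb1 window shown was picked for its matches, so it cannot be compared with the 1 window of Gjc3. The windows of Gjc3, Gja1, Gjb6 and Gjd2 hold none of these letters. A match does not show that a factor binds, and which Gjb1 start is used in these mice was not tested. The Gjd2 window has a GC content of 75%, against 50.7% for Gjc3 and a median of 52.7% over all windows.

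Gja1 encodes Cx43, the main connexin of astrocytes. Its value was 10.88 at the lowest, 11.13 at the median and 11.21 at the highest in HC, and 10.91, 10.97 and 11.10 in CSD mice. The CSD mice lay inside the range of the HC mice, and 5 of 6 were below the HC mean. The difference was −0.11 (standard error 0.06, 95% confidence interval −0.24 to 0.02, adjusted p = 0.700 in limma), and it was −0.05 without HC replicates 2 and 6.

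Gjb6 encodes Cx30, the second connexin of astrocytes, which also occurs in the meninges. Its value was 9.75 at the lowest, 9.86 at the median and 10.05 at the highest in HC, and 9.54, 9.91 and 10.10 in CSD mice. CSD replicate 6 was the lowest of the 12 mice and CSD replicate 9 the highest, so that the CSD mice spread around the HC mice on both sides. The group means were both 9.88 (SD 0.11 in HC and 0.19 in CSD, n = 6 each). The 95% confidence interval of the difference ran from −0.18 to 0.18, and its sign changed between alternatives.

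Gjd2 encodes Cx36. Its value was 7.40 at the lowest, 7.52 at the median and 7.59 at the highest in HC, and 7.36, 7.43 and 7.53 in CSD mice. In CSD 3 of the 6 mice, replicates 7, 8 and 9, lay below the lowest HC mouse and the others lay among the HC mice. The difference was −0.07 (standard error 0.04, 95% confidence interval −0.16 to 0.02, adjusted p = 0.718 in limma), at a signal 1.72 log2 units above system noise. A long noncoding RNA gene, A530058N18Rik, overlaps Gjd2 in the RefSeq table.

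The differences of the 5 connexins were compared with each other in pairs. For each pair, the difference between both genes was taken within each array and compared between the groups by exact permutation, two-sided, with adjustment over the 10 pairs. The 4 pairs that hold Gjc3 passed. Gjc3 fell by 0.53 relative to Gjb1 (standard error 0.12, adjusted exact p = 0.0162, lower in 6 of 6 CSD mice than the HC mean). Relative to Gja1 it fell by 0.57 (standard error 0.15), relative to Gjb6 by 0.68 (standard error 0.15) and relative to Gjd2 by 0.61 (standard error 0.12), each at an adjusted exact p of 0.00722 and with all CSD mice below all HC mice. These 4 pairs share Gjc3 and are not independent of each other. Gjc3 was picked with its lower values on these arrays known, so the 4 pairs describe that difference and do not test it anew. The other 6 pairs differed by between −0.15 and 0.07, with adjusted exact p-values between 0.312 and 0.626, and none passed.

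Each connexin was then set against the other genes of its cell type. Gjc3 lay above the mean of the 11 mature oligodendrocyte genes by 0.49 ± 0.07 (SD, 6 HC mice) and by 0.41 ± 0.12 (SD, 6 CSD mice), so that its difference relative to them was −0.08 (standard error 0.06, adjusted exact p = 0.350 over 5 comparisons). Gjb1 relative to the same mean was −2.84 ± 0.27 (SD, 6 HC mice) and −2.38 ± 0.26 (SD, 6 CSD mice). This is a relative difference of 0.45 (standard error 0.15), higher than the HC mean in 6 of 6 CSD mice, at an exact p of 0.0195 before and 0.0974 after adjustment over the 5, which did not pass. The list mean itself differed by −0.60 and Gjb1 by −0.15. The list was written with its lower values known, so the relative difference is no independent test of Gjb1. How much of it comes from the low signal of Gjb1 was not tested. Relative to 12 astrocyte genes Gja1 differed by −0.07 (standard error 0.04) and Gjb6 by 0.04 (standard error 0.08), and relative to 8 genes of inhibitory neurons Gjd2 differed by −0.02 (standard error 0.05), with adjusted exact p-values between 0.292 and 0.654.

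**Figure D2:**
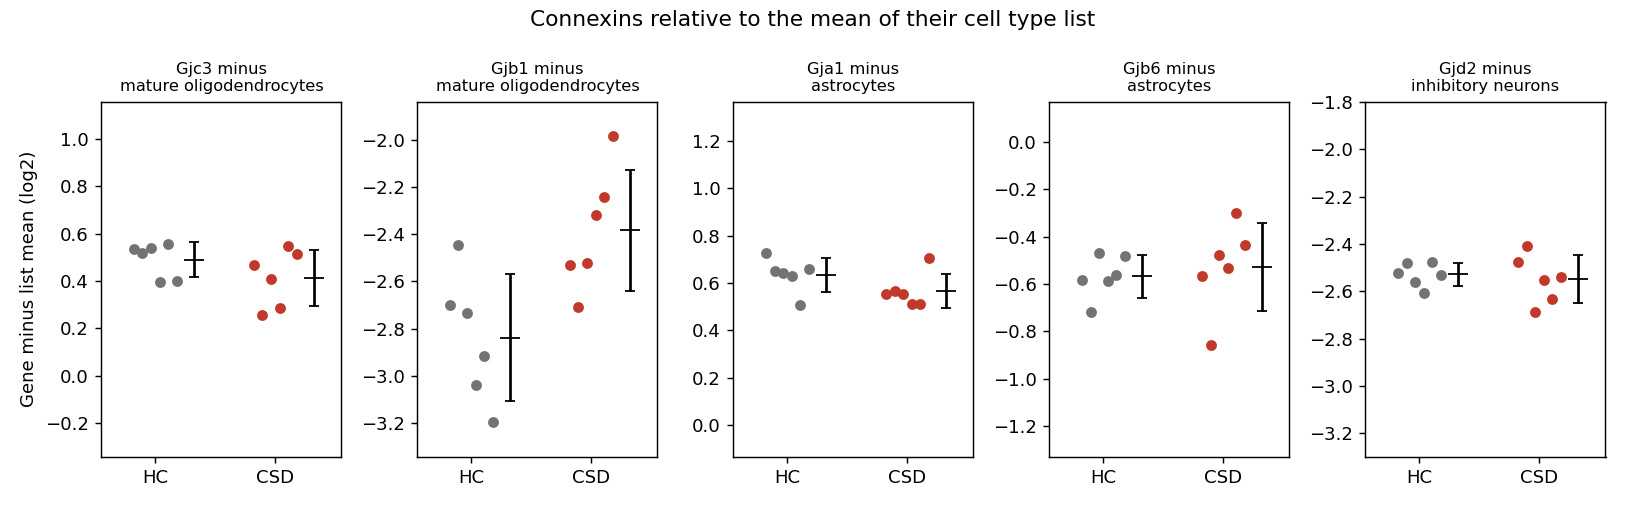
Each connexin minus the mean of its cell type list on the same array (vertical axis, log2, each panel spanning 1.5 log2 units), with 1 point per mouse, HC in grey and CSD in red, and group means ± SD over 6 mice. Relative to the oligodendrocyte genes the CSD mean of Gjb1 lies 0.45 above that of HC, with overlapping groups, and that of Gjc3 differs by −0.08. The mean of the oligodendrocyte genes itself differs by −0.60.

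Among HC mice Gjc3 varied with the other oligodendrocyte genes, a relation that did not pass among CSD mice and in neither group for Gjb1. Because the groups differ in level, each was taken on its own, with 6 mice and all 720 pairings, and p-values were adjusted over the 10 relations of a connexin with its cell type mean, a set of relations chosen after values had been seen. In HC mice Gjc3 and the oligodendrocyte mean had r = 0.97 (exact permutation p = 0.00139, adjusted 0.0139) and rho = 1 (exact p = 0.00278, adjusted 0.0278), and r = 0.95 without the 2 mice farthest from the median of the mean. In CSD mice they had r = 0.82 (exact p = 0.0542, adjusted 0.181) and rho = 0.77 (exact p = 0.103, adjusted 0.340), with r = 0.84 without the 2 farthest mice. For Gjb1 the same relation had r = −0.12 in HC (exact p = 0.789, adjusted 0.789) and r = −0.51 in CSD mice (exact p = 0.296, adjusted 0.493), with rho = −0.09 (exact p = 0.919, adjusted 0.919) and −0.14 (exact p = 0.803, adjusted 0.919). Without the 2 farthest mice r was −0.02 in HC and 0.30 in CSD mice. Whether the relation of Gjc3 differed from that of Gjb1 was not tested.

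**Figure D3:**
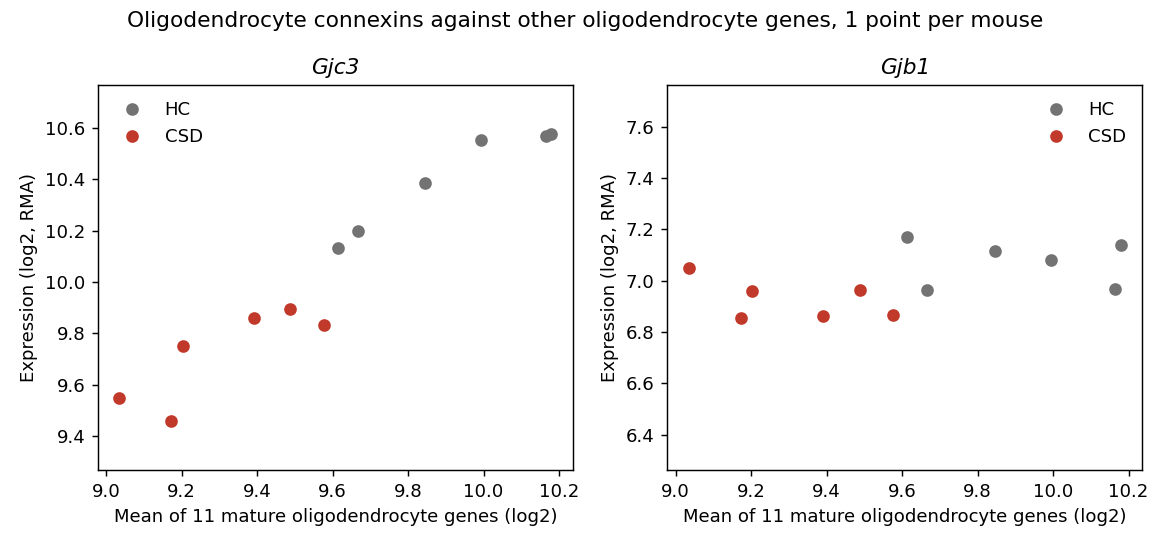
Expression of Gjc3 and of Gjb1 (vertical axes, log2) against the mean of 11 mature oligodendrocyte genes (horizontal axis, log2), 1 point per mouse, HC in grey and CSD in red. Gjc3 against the oligodendrocyte mean has r = 0.97 in HC and 0.82 in CSD mice, of which the first passed, and Gjb1 has r = −0.12 and −0.51.

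Over all 10 pairs of the 5 connexins in both groups, 20 relations in all, the smallest adjusted exact p was 0.651 for r and 0.763 for rho, and none passed. The largest r was that of Gja1 with Gjd2 in HC mice, 0.74 (exact p = 0.0806, rho = 0.77 with exact p = 0.103), against 0.33 in CSD mice (exact p = 0.536, rho = 0.14 with exact p = 0.803). Without the 2 farthest mice it was 0.94 and 0.05. The oligodendrocyte pair Gjc3 and Gjb1 had r = −0.11 in HC (exact p = 0.803, rho = −0.09 with exact p = 0.919) and −0.15 in CSD mice (exact p = 0.761, rho = 0.20 with exact p = 0.714).

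The genes whose values most resembled each connexin were found by the correlation over 12 arrays after each group was centred on its mean, among 14307 genes. These are the highest of many values and are given as a description. For Gjc3 they were Mal, a proteolipid of compact myelin, at 0.96, Gatm, an enzyme of creatine synthesis, at 0.96, and Cldn11, the claudin of tight junctions in myelin, at 0.93. Mal had a CSD minus HC difference of −0.46, Gatm of −0.45 and Cldn11 of −0.57. For Gjb1 they were Il17c at 0.91, Hmx1 at 0.91 and Qprt at 0.89, of which none is in the oligodendrocyte list and each had a positive difference, of 0.11, 0.07 and 0.18. For Gja1 they were Emp2 at 0.96, Glrx2 at 0.92 and Alkbh6 at 0.90, for Gjb6 Rab21 at 0.93, Fubp1 at 0.92 and Sult1a1 at 0.88, and for Gjd2 Hopx at 0.93, Trhr at 0.91 and AW551984 at 0.86. The likeness list of Gjc3 was the only one of the 5 that held a gene of the fixed oligodendrocyte list. Gjb1 averaged 1.25 log2 units above system noise, with an SD of 0.09 in HC and 0.08 in CSD mice. How far array noise shaped the likeness list of Gjb1 was not tested.

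Outside the 5, the connexin family showed no difference that passed. Of 11 other connexins measured, 10 were above system noise. Of these 4 had a lower and 6 a higher mean in CSD mice, 0 reached an unadjusted p under 0.05 in limma, and the median difference was 0.04, against −0.01 over all genes. Gje1 lay below system noise. Of the connexins of blood vessels, Gja4 (Cx37) of endothelium and arterioles differed by 0.08 (standard error 0.05), Gja5 (Cx40) of arterial endothelium by −0.06 (standard error 0.05) and Gjc1 (Cx45) of smooth muscle and pericytes by 0.07 (standard error 0.05). Of those known mainly from other tissues, Gja3 of the lens differed by 0.10, Gjb5 of skin by 0.02, Gja6 by −0.01, Gja10 by 0.06, Gjd3 by −0.01 and Gjd4 by 0.06, with 95% confidence intervals between −0.22 and 0.28. The pannexins, which form single-membrane channels of a related fold, differed by −0.05 (Panx1) and 0.05 (Panx2), and Panx3 lay below system noise.

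**Figure D4:**
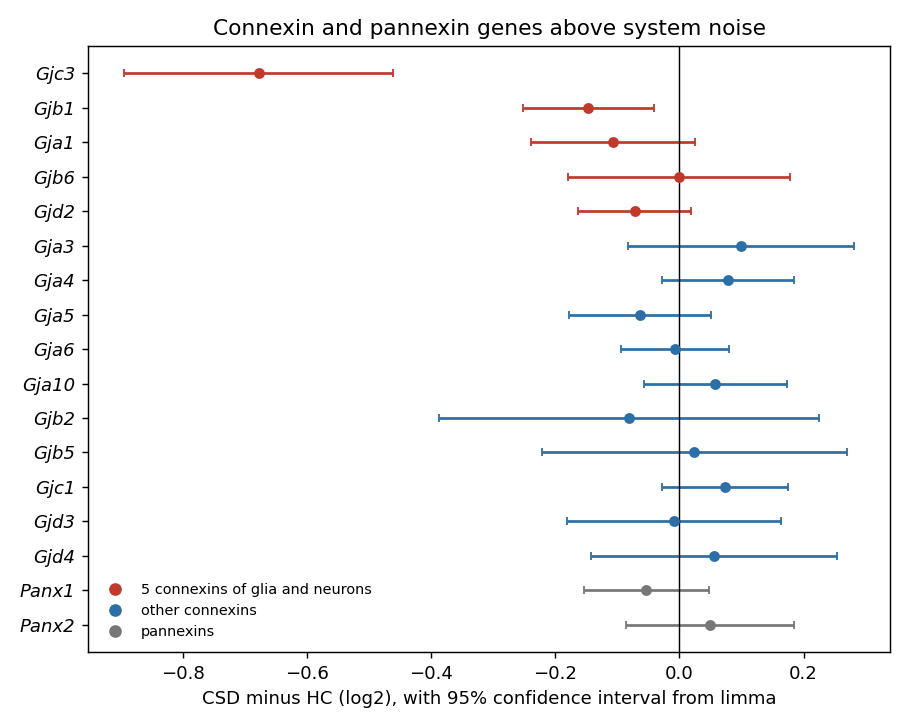
Difference CSD minus HC (horizontal axis, log2) of the 5 connexins of glia and neurons (red), 10 other connexins (blue) and 2 pannexins (grey), as points with 95% confidence intervals from limma over 6 mice per group. The intervals of Gjc3 and Gjb1 lie below 0 and those of the other 15 genes include it.

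Gjb2 encodes Cx26, which in brain tissue is found mostly in the meninges and to a lesser extent in astrocytes. Its value was 6.93 at the lowest, 7.49 at the median and 7.92 at the highest in HC, and 7.22, 7.44 and 7.62 in CSD mice. The difference was −0.08 with a 95% confidence interval from −0.39 to 0.22, the widest of the connexins. In HC mice its value varied with the mean of 8 genes of meningeal fibroblasts, a relation chosen after values had been seen. In HC mice r was 0.98 (exact permutation p = 0.00694, adjusted 0.0278 over 4 relations) and rho 0.83 (exact p = 0.0583, adjusted 0.206), with r = 0.92 without the 2 farthest mice. In CSD mice r was 0.83 (exact p = 0.0528, adjusted 0.106) and rho 0.77 (exact p = 0.103, adjusted 0.206), with r = 0.92 without the 2 farthest. For Gjb6 the same relation had r = 0.40 in HC (exact p = 0.421, rho = 0.60 with exact p = 0.242) and 0.47 in CSD mice (exact p = 0.354, rho = 0.49 with exact p = 0.356), and r = 0.90 and −0.28 without the 2 farthest mice. Mean levels of the meningeal genes ranged from 7.36 to 7.94 in HC and from 7.47 to 8.08 in CSD mice. Of them Lum lay at or near the noise level in all 12 mice, Dcn, a proteoglycan of fibroblasts, differed by −0.01, and the collagen genes Col3a1 and Col1a1 differed by 0.10 and 0.09.

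**Figure D5:**
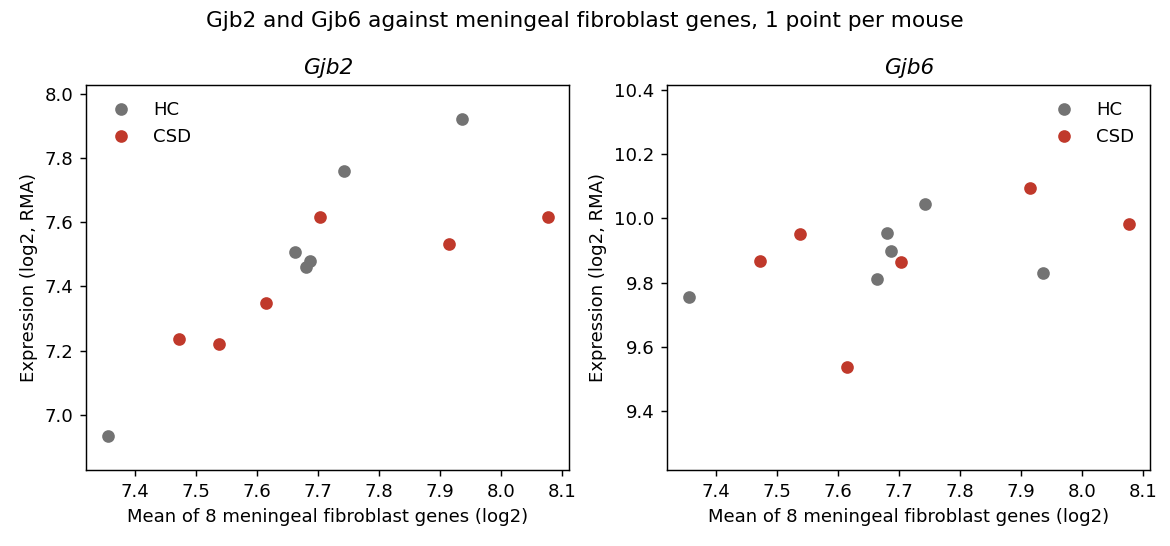
Expression of Gjb2 and Gjb6 (vertical axes, log2) against the mean of 8 meningeal fibroblast genes (horizontal axis, log2), 1 point per mouse, HC in grey and CSD in red. Gjb2 has r = 0.98 in HC and 0.83 in CSD mice, of which the first passed, and Gjb6 has r = 0.40 and 0.47.

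Among genes whose products bind connexins or control them, 10 were measured, 7 with a lower and 3 with a higher mean in CSD mice, and 2 were lower at an unadjusted p under 0.05 in limma, against 6.52% of all genes. These were Cav1, the caveolin of membrane invaginations, at −0.21 (standard error 0.06, adjusted p = 0.320 in limma), and Ybx3, a DNA-binding protein that associates with the tight junction scaffold ZO-1, at −0.19 (standard error 0.06, adjusted p = 0.371 in limma). Tjp1, which encodes ZO-1, the scaffold that binds several connexins, differed by −0.05 (standard error 0.04), and Cnst, which encodes the connexin-trafficking protein consortin, by −0.07 (standard error 0.06). The list was chosen with earlier results known, so its counts describe it and do not test it.

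Genes for the potassium and water handling of the panglial network were counted against all genes. Of 9 measured, 8 had a lower mean in CSD mice, against 57.1% of all genes, with a median difference of −0.11 against −0.01. At an unadjusted p under 0.05 4 were lower, against 6.52% of all genes, but 0 with a fold change of at least 1.2 and 0 after adjustment in limma. Hepacam, the adhesion protein GlialCAM, which holds MLC1 and the ClC-2 channel at astrocyte contacts, differed by −0.14 (standard error 0.04, adjusted p = 0.313 in limma). Slc12a2, a sodium, potassium and chloride cotransporter, differed by −0.23 (standard error 0.08, adjusted p = 0.455 in limma), the potassium channel gene Kcnj10 (Kir4.1) by −0.12 (standard error 0.06) and Kcnj16 (Kir5.1) by −0.06 (standard error 0.06). Kcnj10 and Kcnj16 were not among the 4. This list, too, was chosen with earlier results known, so its counts describe it and do not test it.

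The cell type lists gave the setting of these values. All 11 genes of mature oligodendrocytes measured were lower within both limits without adjustment, against 0.600% of all genes, with a median difference of −0.58. In 8 of the 11 the groups did not overlap, against 0.935% of all genes with CSD below HC, and 0 passed the adjustment in limma. Mog and Ermn had the smallest p, at −0.84 and −0.82, and Mbp, a main protein of compact myelin, differed by −0.32. This list was written with such results known and its direction is no independent finding. Of 8 genes of oligodendrocyte precursors 5 had a lower mean, with a median of −0.01. At an unadjusted p under 0.05 in limma 3 were lower and 0 higher, against 6.52% and 1.89% of all genes. With a fold change of at least 1.2 as well, 0 were lower. The precursor list, too, was chosen with earlier results known, so its counts describe it and do not test it. The defining genes of precursors, Pdgfra and Cspg4, differed by 0.01 and 0.04, while Lhfpl3 and Sox6 differed by −0.13 and −0.09 at adjusted p-values of 0.461 and 0.493 in limma. Of 12 astrocyte genes 8 had a lower mean, with a median of −0.03. Ntsr2 differed by −0.15 (adjusted p = 0.428 in limma), with all CSD mice below all HC mice, Acsbg1 by −0.09, Gfap by −0.01 and Aldh1l1 by −0.09. Of 8 genes of inhibitory neurons 7 had a lower mean, with a median of −0.05, Gad1 and Gad2 at −0.04 and −0.13 and Sst and Pvalb at −0.06 and −0.13, and 0 reached an unadjusted p under 0.05 in limma. The medians were −0.00 for excitatory neurons, −0.05 for microglia, −0.05 for endothelial cells, −0.01 for pericytes and smooth muscle and 0.04 for meningeal fibroblasts.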

How the data were processed

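Expression was measured on 12 arrays, 1 per mouse, 6 HC and 6 CSD, grouped by the sample titles. Values were the log2 values deposited by the authors, computed by RMA (Affymetrix Expression Console, no version stated). This method removes background, normalizes between arrays and summarizes probe sets. Columns of other samples numbered 0. The precision is limited by the number of arrays.

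The study's methods filter and floor at a system noise whose value they do not state, so it was set here to 5.75, the 20th percentile over the whole table. It left 29838 of 35556 probe sets and raised 4.67% of their values to it. Differences were fitted with limma 3.58.1 in R 4.3.3 (two-sided, Benjamini-Hochberg over the probe sets kept) with calls at an adjusted p below 0.05 and a 1.2-fold change or more. By the annotation of the platform (2016), 21789 probe sets have 1 gene, 1621 have several and 12146 have none, and the brightest probe set stood for a gene. Exact permutation tests were two-sided over all 924 assignments of 12 arrays to 2 groups of 6. Intervals are 95% intervals of the fit.

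The 5 connexins and all gene lists were chosen with earlier results of these data known. Some listed genes are not reported here. The arrays are of separate mice. Genes named are the 5, the measured members of the lists of other connexins and pannexins, in the other main lists the 2 written first (where measured) and the 2 with the smallest p, and the 3 genes most like each connexin. Gjb2 was described further, the medians of the remaining lists are given without names, and relations with list means were added, after values were seen. Alternatives were the methods' t-test, no filter, no floor, noise raised by 1 log2 unit, single-gene probe sets only, median centring, quantile normalization, a variance trended on the mean and fitted robustly, weighted arrays, replicate numbers as a random block, the mean over a gene's probe sets, leaving out each array, and leaving out HC replicates 2 and 6, a setting taken from earlier results. The tests were tried on simulated data. Python 3.11.15 and matplotlib 3.10.9 drew the figures.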

Additional observations from a re-analysis of the deposited data

Results flagged for a closer look

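Among 44 groups of 6 values (the 5 connexins, 10 other connexins and 2 pannexins, and the 5 connexins relative to their cell type means, each in HC and CSD), 4 held a mouse whose gap to the nearest other mouse exceeded Dixon's 95% limit for 6 values, as a share of the group's range. Chance flags about 1 in 20 groups. Gja1 relative to the astrocyte mean was 0.71 in CSD replicate 10 and 0.56 in the next mouse, a gap of 0.735 of the range. The other 3 were in genes close to system noise. Gjb5 was 6.14 in CSD replicate 2, with the next mouse at 6.53 (0.778). Gjd4 was 6.62 in HC replicate 2, with the next at 6.18 (0.744), and 6.39 in CSD replicate 9, with the next at 6.23 (0.696).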

How the results depend on the processing

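Gjc3 was lower in CSD mice under all 24 alternatives, between −0.73 and −0.62, with adjusted p-values between 0.0193 and 0.238 in limma and the methods' t-test, and passed under 2 of them, at −0.68 with single-gene probe sets only and at −0.68 with a variance trended on the mean and fitted robustly. With each array left out in turn its adjusted p ranged from 0.0661 to 0.219 in limma, and its difference from −0.73 to −0.62. Gjb1, Gja1 and Gjd2 kept their direction and stayed above the threshold under all 24. Gjb6, at −0.00036 in the values reported, turned to 0.012 with quantile normalization, 0.015 with the replicate block and 0.027 without HC replicates 2 and 6, and ranged from −0.043 to 0.069 with each array left out, where it was highest without CSD replicate 6. The 4 pair differences with Gjc3 passed under all 16 alternatives run for them. Gjb1 relative to the oligodendrocyte mean ranged from 0.37 to 0.53 with each array left out, and it passed at 0.53 without HC replicate 2 and at 0.52 without CSD replicate 6. Gjc3 relative to the same mean ranged from −0.10 to −0.046, with −0.046 without CSD replicate 6. Gjb1 relative to Gja1 ranged from −0.085 to 0.0034, Gjd2 relative to inhibitory neurons from −0.048 to 0.0075 and Gjb6 relative to astrocytes from −0.0065 to 0.11 with each array left out. The number of genes lower without adjustment lay between 80 and 127, against 106. The number higher was 14, and it was 26 without CSD replicate 6, 9 without CSD replicate 7, 8 without CSD replicate 9, 9 with median centring and 22 without HC replicates 2 and 6. HC and CSD share only the replicate numbers 2 and 6, whose arrays did not deviate together (correlations of −0.21 and −0.04), so the numbers were not taken as pairs. With the replicate block Gjc3 was −0.69 (adjusted p = 0.115 in limma) and Gjb1 −0.14, and the block changed no call. Gjb1 and Gjd2 lie within 2 log2 units of system noise, and whether this limits the differences their probe sets show was not tested.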
